A study of Mus musculus with 6 samples.

Results

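The 2 libraries of the FTO experiment were set against the 4 libraries of the METTL3 experiment, all from 3T3-L1 cells, a mouse embryo fibroblast line of pre-adipocytes. A gene was taken as a member where its mean level reached 5 CPM (counts scaled to a common library total) in either experiment and the 2 FTO-experiment libraries lay both above or both below all 4 METTL3-experiment libraries. Of 10598 genes that reached this level, among 37315 entries counted, 8327 (78.6%) were members. There were 3878 higher in the FTO experiment (36.6% of the 10598) and 4449 lower (42%), while 2271 overlapped. The authors' deposited RPKM values also divide by gene length. On these, 8046 genes had a mean of at least 5, and the split was 2061 higher and 4472 lower. Going from CPM to RPKM changed the median log2 ratio of the experiments by -0.26. A gene length that is the same in every library cancels in this ratio. The shift then follows the library totals used for scaling, and the split into higher and lower can depend on them. Whether a gene reaches a mean of 5 in RPKM does depend on its length. The 2 splits are therefore also over different genes. Just inside the threshold lay Prelid2, whose higher mean was 5.002 CPM, and Lrrc51 with 5.021 CPM. Just outside lay Gm10163 with 4.99 CPM and Gpld1 with 4.98 CPM.

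The FTO experiment held 1 FTO knockdown and 1 control library. The METTL3 experiment held 2 METTL3 knockdown and 2 control libraries. Per the labels all 6 came from the same line, transiently transfected, with polyadenylated RNA selected and ribosomal RNA then depleted. What the control cells received is not stated, and the labels do not say whether the libraries are separate cultures, so p-values measure the spread between these libraries. Libraries of the FTO experiment were read in paired-end mode and those of the METTL3 experiment in single-read mode, with reads of 101 bp in both. Read mode and experiment follow the same split and cannot be told apart.

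FTO removes methyl groups from N6-methyladenosine (m6A) in RNA, and METTL3 is the enzyme of the complex that adds them. Pre-adipocytes are fibroblast-like cells that lay down collagen matrix, hold contractile actin fibres and carry adipogenic and anti-adipogenic regulators until they are induced. Processes outside the cell's state can also differ between sequencing runs: how a read is placed when the genome holds several almost identical copies of a gene, and how well fragments of different base composition are recovered. Values per library are listed with knockdown before control, so that the METTL3 experiment reads knockdown 1, knockdown 2, control 1 and control 2.

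Library totals were 28348179 and 29321128 counted reads in the FTO experiment, against 41841866, 44580722, 43254253 and 41773967 in the METTL3 experiment. A count of 3 in the smallest library equals 0.106 CPM. Fto, the demethylase, had 49.8 and 153 CPM in the FTO experiment, against 144, 135, 147 and 143 CPM in the METTL3 experiment. It was low in the library in which it was targeted, and the other 5 lay close together. Mettl3 had 18 and 15 CPM in the FTO experiment, against 7.58, 6.57, 25.1 and 29.2 CPM in the METTL3 experiment. All 13 markers of mesenchymal cells and pre-adipocytes had reads in every library, and their summed level was 15652.6 and 19335.7 CPM in the FTO experiment, against 27448.2 to 30027.9 CPM in the METTL3 experiment. Of these 13 genes 3 were higher and 7 lower (4 lower without the FTO knockdown library), and in bulk RNA fewer cells of a type and less RNA per cell cannot be told apart. Cd44, the hyaluronan receptor, had 348 and 269 CPM in the FTO experiment, against 55, 73.4, 52.8 and 66.7 CPM in the METTL3 experiment, while Eng, a TGF-beta co-receptor, had 2.15 and 2.15 CPM in the FTO experiment, against 8.65, 9.17, 7.61 and 7.49 CPM in the METTL3 experiment. Adipoq, the adipokine of mature adipocytes, reached at most 0.0956 CPM in any library, and Ptprc, the common leukocyte antigen, at most 0.0353 CPM. Epcam, an epithelial marker, and Myod1, a muscle marker, had no read in any library. Summed endothelial markers were at 31.8 and 12.8 CPM in the FTO experiment, against 3.50 to 5.88 CPM in the METTL3 experiment, of which Vwf made up most with 30.4 and 12 CPM in the FTO experiment, against 3.54, 4.24, 2.75 and 2.51 CPM in the METTL3 experiment. Macrophage markers summed to 23.9 and 23.2 CPM in the FTO experiment, against 23.8 to 36.8 CPM in the METTL3 experiment. Neural markers summed to 8.61 and 7.5 CPM in the FTO experiment, against 11.1 to 14.4 CPM in the METTL3 experiment. The part of such cells in the results was not tested.

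In an edgeR quasi-likelihood fit of experiment over all 6 libraries, 9967 of 14748 genes tested (67.6%) differed at a Benjamini-Hochberg adjusted p under 0.05. Control and knockdown libraries of an experiment entered as its samples, so differences between them count as spread within the experiment. Of the genes tested 34.4% were higher in the FTO experiment and 33.2% lower, and the median log2 fold change (FTO over METTL3 experiment) was -0.01. Counts for each gene list below are read against these shares. With control libraries only, or with 1 library left out, fewer genes passed over all. With 1 library left out, the fewest passed without the FTO knockdown library. List counts in those settings are not read against these shares. Of the 8327 members, 7552 passed this test and 775 did not, and 3344 differed by more than 2-fold and 673 by more than 4-fold between the experiments' mean CPM + 1. These counts share their contrast with the rule and are a description.

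Genes were put in 3 classes by sequence and annotation. A gene had a near-identical copy where its longest transcript aligned elsewhere over at least 200 bases at 95% identity or more. Otherwise, it was in the overlap class where its exons shared at least 100 bases with another gene, and in the clear class where neither held. Of the 10598 genes, 1015 had a copy, 2902 overlapped and 6618 were clear, and 63 entries were not annotated. Since the class rests on the longest transcript, Gapdh and Rpl34 are in the clear class although copies align to their shorter transcripts.

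The share of genes that did not overlap between experiments was similar in the classes but the direction was not. It was 80.8% among genes with a copy (95% Wilson interval 78.3% to 83.1%) and 78.2% among clear genes (77.2% to 79.1%), intervals that cover counting error only. Of the genes that did not overlap, 63.4% were higher in the FTO experiment where there was a copy, against 45.8% in the clear class. Differences of more than 8-fold in mean CPM + 1 were split 77 higher to 4 lower among genes with a copy, and 45 higher to 33 lower among clear genes. Genes low in 1 experiment could reach 5 CPM only through the other, so these splits are a description. Pseudogenes made up 112 of the 520 higher genes with a copy and 19 of the 300 lower.

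**Figure D1:**
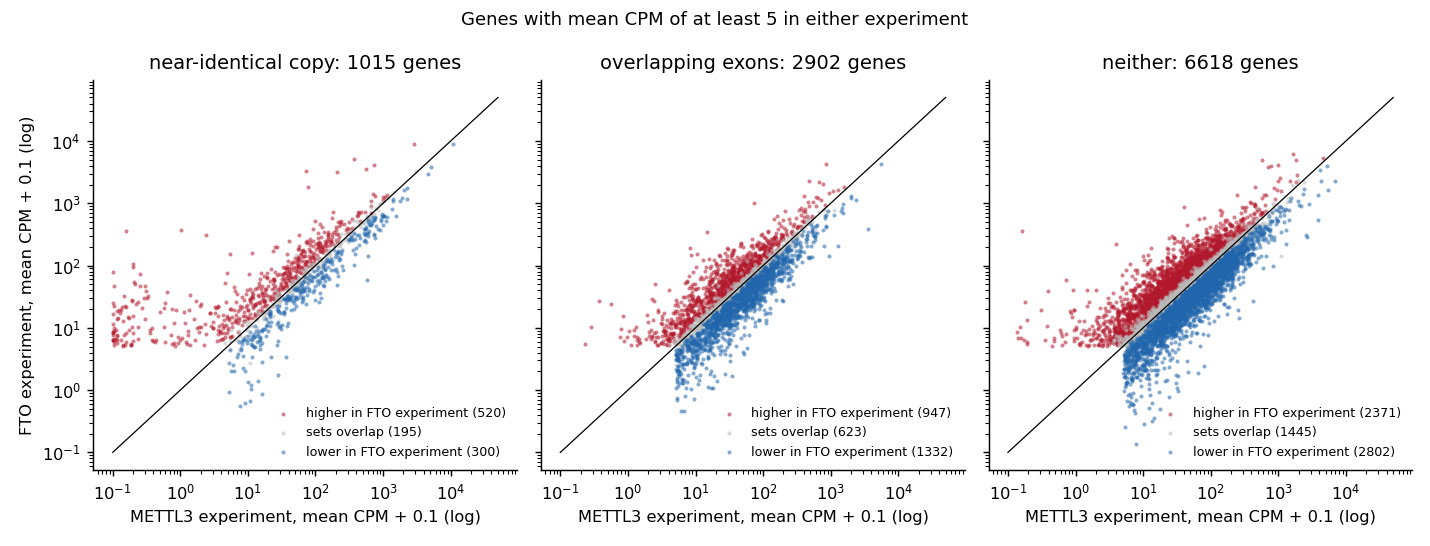
Mean CPM of each gene in the FTO experiment (vertical) against the METTL3 experiment (horizontal), both with 0.1 added on log axes, in 3 classes, with the line of equality drawn. The 77 genes with a copy that were over 8-fold higher in the FTO experiment form the scatter at the upper left of the first panel, and the clear class has 45 such genes among 6618.

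The widest gap in the clear class belonged to Gm24270, annotated as a miRNA and too short to meet the rule for a copy, with 430.0 and 291 CPM in the FTO experiment, against 0.0478, 0.0673, 0.0694 and 0.0718 CPM in the METTL3 experiment. The 12 coding genes of this class with the widest gap between the experiments in each direction are described here without a test, since the gap chose them. Fhl1, a LIM-domain protein of muscle and stretched fibroblasts (chrX:56731787-56793346, GRCm38), had 244 and 192 CPM in the FTO experiment, against 1.19, 3.21, 2.22 and 8.74 CPM in the METTL3 experiment. Its mean was 56.8-fold higher in the FTO experiment. Gja1, which encodes the gap junction protein connexin 43, had 112 and 99.4 CPM in the FTO experiment, against 6.81, 7.0, 6.01 and 5.77 CPM in the METTL3 experiment. Il1rl1, the receptor of interleukin 33, had 291 and 263 CPM in the FTO experiment, against 30.7, 27.7, 20.04 and 16.9 CPM in the METTL3 experiment. In all of these the lowest FTO-experiment library lay far above the highest METTL3-experiment library. Megf10, an engulfment receptor, had 50.5 and 30.3 CPM in the FTO experiment, against 0.526, 1.1, 0.509 and 1.1 CPM in the METTL3 experiment. Lgr6, a receptor for R-spondins, had 25.8 and 11.9 CPM in the FTO experiment, against 0.0717, 0.381, 0.0694 and 0.311 CPM in the METTL3 experiment. Its FTO knockdown library was above its FTO control library. Rlim, a ubiquitin ligase, had 299 and 259 CPM in the FTO experiment, against 24.1, 30.4, 27.4 and 31 CPM in the METTL3 experiment. Dpysl2, a microtubule-binding protein, had 136 and 164 CPM in the FTO experiment, against 9.7, 11.9, 13.6 and 12.3 CPM in the METTL3 experiment. The remaining genes were Lnpep, Arhgap5, Mob1b, mt-Atp8 and mt-Nd6, with ratios of mean CPM of 14.6, 15.6, 11.4, 95.6 and 22. With 204 bases, mt-Atp8 can hardly meet the rule for a copy.

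The 12 genes with the widest gap downward are described likewise. Mmp9, a gelatin-degrading metalloproteinase (chr2:164940780-164955850, GRCm38), had 1.45 and 3.17 CPM in the FTO experiment, against 79.4, 102, 61.7 and 70.5 CPM in the METTL3 experiment. Its mean was 34-fold lower in the FTO experiment. Oasl2, an interferon-induced protein of the oligoadenylate synthetase family, had 1.38 and 2.25 CPM in the FTO experiment, against 82.4, 46.5, 77.9 and 55.9 CPM in the METTL3 experiment. Irf7, the transcription factor that amplifies type I interferon production, had 0.847 and 1.57 CPM in the FTO experiment, against 35.6, 20.5, 37.9 and 28.2 CPM in the METTL3 experiment. Trp63, a p53-family factor best known in epithelia, had 0.529 and 1.19 CPM in the FTO experiment, against 37.6, 31.1, 34.4 and 27.8 CPM in the METTL3 experiment. Scara5, a ferritin receptor of mesenchymal cells, had 6.56 and 21.6 CPM in the FTO experiment, against 349, 266, 253 and 169 CPM in the METTL3 experiment. It was lower in the FTO knockdown than in the FTO control library, and both lay far under the METTL3 experiment. Osr2, a developmental transcription factor, had 0.67 and 1.26 CPM in the FTO experiment, against 46.1, 26.3, 37.9 and 16 CPM in the METTL3 experiment. Col5a3, a chain of collagen V, had 20.2 and 33.3 CPM in the FTO experiment, against 515, 405, 469 and 277 CPM in the METTL3 experiment. Lbp, which binds lipopolysaccharide, had 0.106 and 0.341 CPM in the FTO experiment, against 13.5, 15, 14.7 and 11 CPM in the METTL3 experiment, and Fgf23, a phosphate-regulating hormone, had 0.0706 and 0.307 CPM in the FTO experiment, against 7.86, 9.24, 11.4 and 11.7 CPM in the METTL3 experiment. Spon2, Trim30d and Ssbp4 were lower by ratios of mean CPM of 20.8, 20.2 and 10.6.

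**Figure D2:**
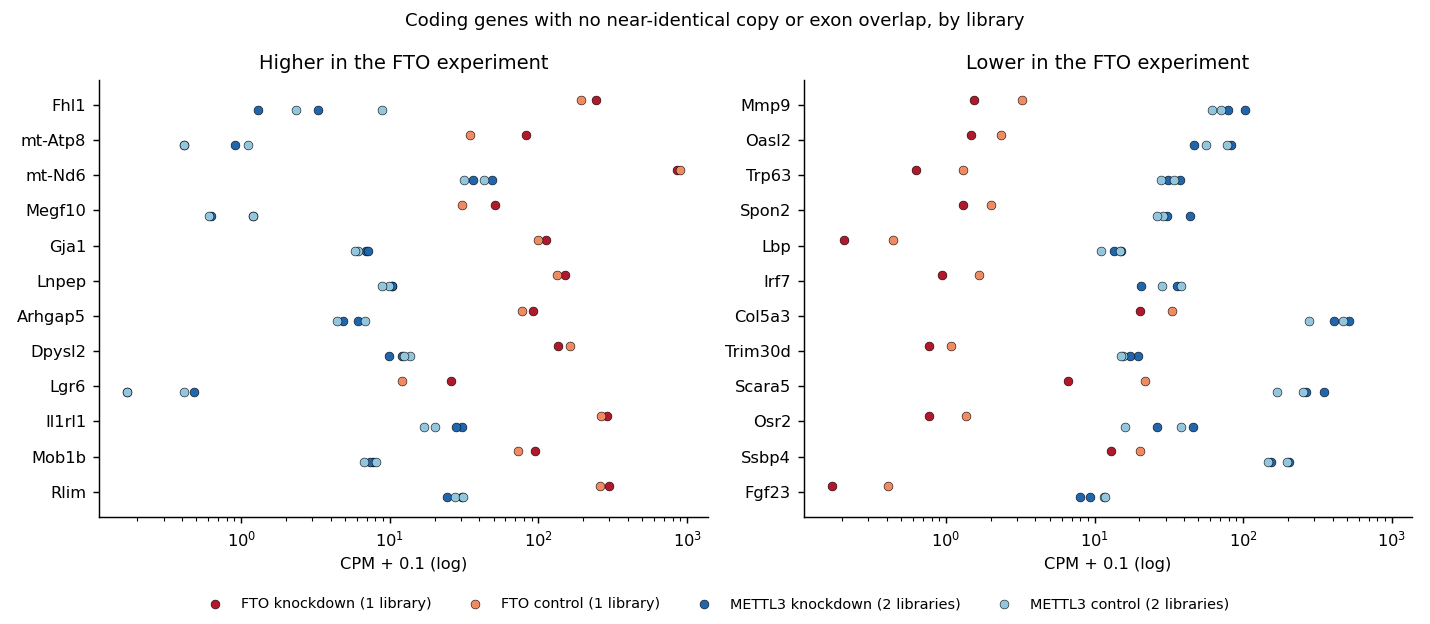
CPM + 0.1 on a log axis of the 12 coding genes with the widest gap in each direction, among those with neither copy nor exon overlap, 1 point per library, with FTO-experiment libraries drawn above METTL3-experiment libraries in each row. No METTL3-experiment point reaches the FTO-experiment points of any gene.

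The 2 sets also differed in base composition and length, which the rule did not use. The 12 higher genes had a median transcript GC content of 41.6%, against 54.2% for the 12 lower genes, and median lengths of 5988.5 and 3149 bases. The same held across the clear class. Over 5480 clear coding genes split into 5 equal groups by GC content, 80.4% of the lowest group were members higher in the FTO experiment and 6.11% members lower. In the highest group 5.57% were higher and 81.3% lower. Median log2 ratios of the experiments ran 0.94, 0.40, -0.04, -0.40 and -0.92 over the 5 groups, low to high. Spearman's rho between GC content and the ratio was -0.66 across these genes. For 3′ UTR length it was 0.38 and for transcript length 0.39. These are descriptions over genes that share 6 libraries. The within-experiment ratios were weaker, with a rho of -0.35 for FTO knockdown over FTO control, 0.11 for METTL3 knockdown over METTL3 control and -0.11 between METTL3 replicate numbers.

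**Figure D3:**
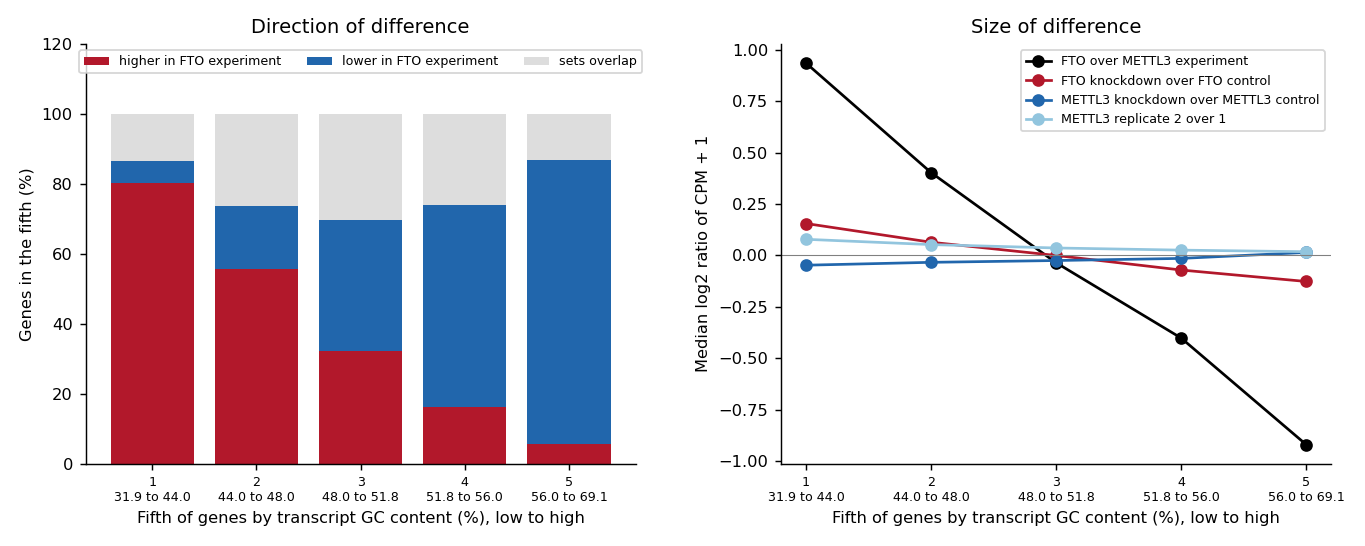
Left, the share of clear coding genes in each of 5 groups of GC content that were members higher or lower in the FTO experiment or overlapped. Right, the median log2 ratio of CPM + 1 in each group for FTO over METTL3 experiment and for 3 ratios within an experiment. The experiments differ by 0.94 in the lowest and -0.92 in the highest group, while the within-experiment lines stay between 0.16 and -0.13.

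For this reason the median log2 fold change of a list below is given as fitted and again after a smooth trend on GC content and transcript length was subtracted. The trend was fitted to 14522 genes tested and had an R squared of 0.233. Log2 fold changes of single genes are as fitted unless stated otherwise, and with the trend removed many differ. The part of base composition and length in any single gene's difference was not tested.

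Interferon-induced genes formed the list furthest below the rest. Of 31 genes of the interferon response, 28 were lower and 1 higher in the FTO experiment, with a median log2 fold change of -2.79 as fitted and -2.76 with the trend removed. The counts were 28 lower and 1 higher again with each of the 6 libraries left out in turn, and with the 3 control libraries only. Ptprc, the leukocyte antigen, was near 0 in all libraries, as given above. Of 5 macrophage markers tested, 1 was higher and 1 lower in the FTO experiment. The lower was Cd14, with 14 and 12.3 CPM in the FTO experiment, against 26.7, 21.8, 21.9 and 15.8 CPM in the METTL3 experiment. The part of such cells in the interferon list was not tested. Mx1, a GTPase that blocks viral replication, had 0.141 and 0.648 CPM in the FTO experiment, against 27.2, 14.2, 18.2 and 9.93 CPM in the METTL3 experiment (log2 fold change -5.41 ± 0.64 SE, adjusted p = 0.00014 by edgeR's quasi-likelihood test). Zbp1, a sensor of Z-form nucleic acid, had 0.423 and 0.409 CPM in the FTO experiment, against 19.7, 7.22, 16.1 and 5.86 CPM in the METTL3 experiment (log2 fold change -4.84 ± 0.70 SE, adjusted p = 0.00041). Stat2 and Irf9, subunits of the complex that transmits the interferon signal, had log2 fold changes of -3.0 and -2.79. Stat2 had 10.3 and 20.9 CPM in the FTO experiment, against 182, 99.95, 148 and 80.3 CPM in the METTL3 experiment. Isg15, a ubiquitin-like modifier that has a near-identical copy, had 2.68 and 3.96 CPM in the FTO experiment, against 47.3, 26.5, 40.8 and 31 CPM in the METTL3 experiment. In the METTL3 experiment both control and knockdown libraries lay above the FTO experiment in these genes. Its libraries numbered 1 were above those numbered 2 in Mx1, Zbp1, Stat2 and Isg15. The list's summed level was 295 and 366 CPM in the FTO experiment, against 1482, 970, 1402 and 1104 CPM in the METTL3 experiment. Ifit2 was the 1 gene that went the other way, with 46.8 and 43.8 CPM in the FTO experiment, against 22.1, 19.6, 16.6 and 19.5 CPM in the METTL3 experiment (log2 fold change 1.25 ± 0.13 SE, adjusted p = 7.6e-05), and Eif2ak2, the double-stranded RNA-activated kinase, had 55.9 and 64.8 CPM in the FTO experiment, against 67.1, 56.4, 69.2 and 65.7 CPM in the METTL3 experiment (log2 fold change -0.07 ± 0.13 SE, adjusted p = 0.65).

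Promoters of 3 of these genes are shown because the group moved together, each a stretch upstream of the RefSeq start (GRCm38.p6) with GAAA, any 2 bases and GAAA again, the core of the interferon-stimulated response element, or the reverse complement, in capitals. Both strands were searched, and overlapping matches were counted as 1 gene.
Bst2 (chr8:71537568-71537627, minus strand): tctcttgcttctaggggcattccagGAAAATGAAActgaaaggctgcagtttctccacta
Isg15 (chr4:156200862-156200921, minus strand): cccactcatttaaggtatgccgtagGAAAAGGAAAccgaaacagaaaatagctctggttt
Gbp2 (chr3:142620579-142620638, plus strand): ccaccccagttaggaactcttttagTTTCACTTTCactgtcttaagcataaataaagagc
Of the list's 31 genes, 23 had a promoter in the RefSeq table, and 13 of these (56.5%) held the letters on either strand within 250 bases before to 50 after the start. Among all 27025 genes with a RefSeq promoter, 3.99% did. In the MHC class I list described next, 3 of 13 (23.1%) did. The interferon list was made of genes known to respond to interferon. Its excess of these letters can follow from that choice and is not a result of these libraries. A match is a description of the letters and not of a bound factor. Bst2, which tethers virus particles to the cell surface, had 6.46 and 8.7 CPM in the FTO experiment, against 124, 69.4, 106 and 63.4 CPM in the METTL3 experiment. Gbp2, an interferon-induced GTPase, had 2.86 and 4.77 CPM in the FTO experiment, against 22.9, 14.1, 31.5 and 27.7 CPM in the METTL3 experiment.

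Genes of antigen presentation on MHC class I were lower alongside. Of 15 tested, 13 were lower and none higher, with a median of -1.33 as fitted and -1.05 with the trend removed. Tap1, a subunit of the peptide transporter of the endoplasmic reticulum, had 2.36 and 4.95 CPM in the FTO experiment, against 60.2, 41.3, 62.3 and 43.3 CPM in the METTL3 experiment (log2 fold change -3.79 ± 0.35 SE, adjusted p = 3.9e-05). Psmb8, a subunit of the immunoproteasome, had 0.0353 and 0.239 CPM in the FTO experiment, against 6.93, 4.67, 5.5 and 2.61 CPM in the METTL3 experiment, below the level that defined members. B2m, the light chain of class I molecules, had 548 and 629 CPM in the FTO experiment, against 843, 656, 722 and 615 CPM in the METTL3 experiment (log2 fold change -0.24 ± 0.15 SE, adjusted p = 0.19). H2-D1, a class I heavy chain, had 189 and 140.04 CPM in the FTO experiment, against 257, 288, 255 and 295 CPM in the METTL3 experiment (log2 fold change -0.71 ± 0.14 SE, adjusted p = 0.002). Tap2, the partner of Tap1, had 2.68 and 3.04 CPM in the FTO experiment, against 42.8, 27.4, 35 and 25.6 CPM in the METTL3 experiment (log2 fold change -3.49 ± 0.27 SE, adjusted p = 1.9e-05). Differences were wider for the peptide transporter than for these 2 class I chains.

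Collagens and the enzymes that process them were mostly lower in the FTO experiment. Of 31 tested, 23 were lower and 2 higher, with a median of -1.13 as fitted and -1.0 with the trend removed. The number lower was 23 to 25 with any 1 library left out. Col3a1, the fibrillar collagen of loose connective tissue, had 310.5 and 448 CPM in the FTO experiment, against 4360.1, 2953, 4253 and 2821 CPM in the METTL3 experiment (log2 fold change -3.22 ± 0.28 SE, adjusted p = 2.9e-05). It lies in the overlap class. Col6a1, a chain of the microfibrillar collagen VI, had 361 and 719 CPM in the FTO experiment, against 4174, 3427, 4317 and 3619 CPM in the METTL3 experiment (log2 fold change -2.82 ± 0.29 SE, adjusted p = 6.9e-05). The FTO knockdown library was lower than the FTO control library in both. Col1a1 and Col1a2, the 2 chains of collagen I, were also lower. Col1a1 had 1165 and 2087 CPM in the FTO experiment, against 5383, 5384, 5567 and 5238 CPM in the METTL3 experiment, and Col1a2 had 1725 and 2880.1 CPM in the FTO experiment, against 6893, 6166, 7715 and 7222 CPM in the METTL3 experiment. Serpinh1, the collagen chaperone, had 827 and 987 CPM in the FTO experiment, against 2038, 2359, 2035 and 2241 CPM in the METTL3 experiment (log2 fold change -1.23 ± 0.12 SE, adjusted p = 6.2e-05). The basement membrane chains Col4a1 and Col4a2 did not pass the test, with log2 fold changes of -0.43 and -0.49. Col8a1, a short-chain collagen, went the other way with 74.3 and 62.2 CPM in the FTO experiment, against 7.86, 16.6, 9.94 and 19.6 CPM in the METTL3 experiment (log2 fold change 2.37 ± 0.31 SE, adjusted p = 0.00025).

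Other matrix groups were mixed. Among adhesive and matricellular proteins 16 of 28 were lower and 6 higher (10 lower without the FTO knockdown library). The list's median was -0.5 as fitted and -0.38 with the trend removed. Postn, a matricellular protein of connective tissue, had 7.2 and 35.6 CPM in the FTO experiment, against 169.9, 135, 199.5 and 189 CPM in the METTL3 experiment (log2 fold change -2.98 ± 0.56 SE, adjusted p = 0.0017). Tgfbi, an integrin-binding matrix protein, had 21.3 and 27.4 CPM in the FTO experiment, against 174, 149, 173 and 134 CPM in the METTL3 experiment (log2 fold change -2.66 ± 0.18 SE, adjusted p = 1.1e-05). Dcn, the collagen-binding proteoglycan decorin, had 86 and 95.5 CPM in the FTO experiment, against 736, 448, 722 and 442 CPM in the METTL3 experiment (log2 fold change -2.67 ± 0.28 SE, adjusted p = 7.2e-05), while Bgn, its relative biglycan, was higher with 2714 and 2988 CPM in the FTO experiment, against 1784, 1809.9, 1883 and 2130.2 CPM in the METTL3 experiment (log2 fold change 0.61 ± 0.11 SE, adjusted p = 0.0013). Metalloproteinases and their inhibitors split 6 higher and 10 lower of 23, with a median of -0.43 as fitted and -0.44 with the trend removed. Mmp3, stromelysin, had 279 and 123 CPM in the FTO experiment, against 33.6, 19.6, 31.7 and 15.6 CPM in the METTL3 experiment, and Mmp13, a collagenase, had 120.4 and 19.6 CPM in the FTO experiment, against 7.58, 6.26, 3.98 and 1.44 CPM in the METTL3 experiment. Both were far higher in the FTO knockdown than in the FTO control library.

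Contractile genes and targets of YAP and serum response factor were more often higher. Of 22 contractile and myofibroblast genes 12 were higher and 4 lower, with a median of 0.81 as fitted and 0.65 with the trend removed. Without the FTO control library 7 were higher, and without the FTO knockdown library 2 were lower. Actb, cytoplasmic beta-actin, had 5870.5 and 6426 CPM in the FTO experiment, against 1449.9, 1603, 1644 and 1935 CPM in the METTL3 experiment (log2 fold change 1.92 ± 0.12 SE, adjusted p = 8.5e-06). Flna, which crosslinks actin filaments, had 4991 and 5081 CPM in the FTO experiment, against 1699, 1976, 1669 and 1913 CPM in the METTL3 experiment (log2 fold change 1.5 ± 0.10 SE, adjusted p = 1e-05). Acta2, smooth muscle actin, had 2215 and 2372 CPM in the FTO experiment, against 592, 1184, 614 and 1598 CPM in the METTL3 experiment (log2 fold change 1.23 ± 0.36 SE, adjusted p = 0.015). METTL3-experiment libraries numbered 2 were above those numbered 1. Its adjusted p was 0.058 without the FTO knockdown library and 0.075 without the FTO control library. Des, the intermediate filament desmin, was lower (log2 fold change -1.66 ± 0.21 SE, adjusted p = 0.0002). Of 12 YAP and serum response targets 7 were higher and 1 lower, with a median of 1.01 as fitted and 1.08 with the trend removed. Ccn2, connective tissue growth factor, had 47.8 and 32 CPM in the FTO experiment, against 2.27, 5.56, 2.03 and 6.1 CPM in the METTL3 experiment (log2 fold change 3.35 ± 0.41 SE, adjusted p = 0.00018), and Tead1, the DNA-binding partner of YAP, had 218 and 212 CPM in the FTO experiment, against 58.9, 54.9, 65.7 and 77.8 CPM in the METTL3 experiment (log2 fold change 1.77 ± 0.14 SE, adjusted p = 2e-05). Ccn1 and Ankrd1, other targets of YAP, did not pass, with log2 fold changes of -0.19 and 0.6.

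Adipogenic regulators on both sides were more often lower. Of 24 pro-adipogenic regulators 14 were lower and 6 higher, with a median of -0.81 as fitted and -0.35 with the trend removed. Cebpa, a late adipogenic factor, had 2.33 and 3.31 CPM in the FTO experiment, against 15.6, 9.02, 20.6 and 13.2 CPM in the METTL3 experiment (log2 fold change -2.34 ± 0.36 SE, adjusted p = 0.00058), but its GC content is 62.6% and with the trend removed its log2 fold change was -0.81. Cebpd, an early adipogenic factor, had 77.8 and 94.9 CPM in the FTO experiment, against 233, 232, 196 and 208 CPM in the METTL3 experiment (log2 fold change -1.3 ± 0.14 SE, adjusted p = 7.3e-05). Pparg, the master regulator of adipocytes, had 37.9 and 30.5 CPM in the FTO experiment, against 24.1, 22.5, 31.5 and 32.7 CPM in the METTL3 experiment (log2 fold change 0.33 ± 0.18 SE, adjusted p = 0.14), and did not pass. Klf5, an early inducer of Pparg, was higher with 44.8 and 26.7 CPM in the FTO experiment, against 5.21, 7.4, 4.49 and 5.05 CPM in the METTL3 experiment (log2 fold change 2.72 ± 0.24 SE, adjusted p = 3.1e-05), as was Fgf10, a growth factor for pre-adipocytes, with 58.6 and 62.5 CPM in the FTO experiment, against 10.7, 8.77, 15.7 and 15.5 CPM in the METTL3 experiment (log2 fold change 2.28 ± 0.23 SE, adjusted p = 5.7e-05). Of 19 anti-adipogenic regulators 12 were lower and 5 higher, with a median of -1.18 as fitted and -0.43 with the trend removed. Of these, 2 were higher without the FTO control library and 3 without METTL3 knockdown library 2. Wnt6, which holds cells in the undifferentiated state, had 0.423 and 0.614 CPM in the FTO experiment, against 18.9, 16.2, 10.1 and 7.95 CPM in the METTL3 experiment (log2 fold change -4.64 ± 0.49 SE, adjusted p = 7.9e-05), and Klf2, a repressor of Pparg, had 7.76 and 14.4 CPM in the FTO experiment, against 59.9, 60.8, 61.1 and 61.1 CPM in the METTL3 experiment (log2 fold change -2.42 ± 0.24 SE, adjusted p = 5.2e-05). With the trend removed the log2 fold changes of Wnt6 and Klf2 were -3.29 and -1.12. Dlk1, the pre-adipocyte factor that is lost on differentiation, had 1059 and 1684 CPM in the FTO experiment, against 3367, 3784, 3649 and 4469 CPM in the METTL3 experiment (log2 fold change -1.44 ± 0.21 SE, adjusted p = 0.00038). Over the WNT pathway 12 of 18 were lower and 4 higher, with a median of -1.15 as fitted and -0.82 with the trend removed. Among 20 adipocyte markers, 11 were tested, with 3 higher and 4 lower and a median of 0.21 as fitted and 0.32 with the trend removed. Fabp4, a fatty acid carrier of adipocytes, had 42.6 and 46.3 CPM in the FTO experiment, against 15.5, 17.4, 22 and 22 CPM in the METTL3 experiment.

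Genes of DNA replication and mitosis that passed were mostly higher in the FTO experiment. Of 30 S-phase genes 14 were higher and 1 lower, with a median of 0.5 as fitted and 0.56 with the trend removed. Without the FTO knockdown library 9 were higher. Of 26 mitotic genes 11 were higher and none lower, with a median of 0.42 as fitted and 0.21 with the trend removed. Without the FTO knockdown library 7 were higher. Without METTL3 control library 1 there were 4 lower, and without METTL3 knockdown library 1 there were 2 lower. Pola1, the catalytic subunit of DNA polymerase alpha, had 108 and 82.4 CPM in the FTO experiment, against 15.8, 25.3, 13.2 and 20.9 CPM in the METTL3 experiment (log2 fold change 2.37 ± 0.23 SE, adjusted p = 5e-05). Bub1, a spindle checkpoint kinase, had 69.7 and 47.7 CPM in the FTO experiment, against 10.8, 17.9, 8.51 and 18.6 CPM in the METTL3 experiment (log2 fold change 2.1 ± 0.30 SE, adjusted p = 0.00038). The METTL3-experiment libraries numbered 2 were above those numbered 1 in both genes. The G1 cyclins, their kinases and the kinase inhibitors went more often the other way, with 5 higher and 9 lower of 15. Their median was -0.45 as fitted and -0.17 with the trend removed. Ccnd1, cyclin D1, had 682 and 829 CPM in the FTO experiment, against 174, 266, 182 and 218 CPM in the METTL3 experiment (log2 fold change 1.88 ± 0.17 SE, adjusted p = 3.6e-05), and Cdkn2c, an inhibitor of cyclin-dependent kinases, had 20.9 and 29.1 CPM in the FTO experiment, against 102, 108, 91.4 and 83.2 CPM in the METTL3 experiment (log2 fold change -1.92 ± 0.18 SE, adjusted p = 4.1e-05). With the trend removed the log2 fold change of Cdkn2c was -0.85. Immediate early genes gave 12 lower and 7 higher of 25 (4 higher without the FTO knockdown library). Fosb, a rapidly induced AP-1 subunit, had 1.94 and 1.71 CPM in the FTO experiment, against 29, 15.3, 88.9 and 50.9 CPM in the METTL3 experiment (log2 fold change -4.63 ± 0.78 SE, adjusted p = 0.00092), with the control libraries of the METTL3 experiment highest, while Fosl1, another AP-1 subunit, was higher with 201 and 119 CPM in the FTO experiment, against 36, 52.1, 23.3 and 30.9 CPM in the METTL3 experiment (log2 fold change 2.2 ± 0.29 SE, adjusted p = 0.00027). The list's median was -0.62 as fitted and 0.18 with the trend removed. Targets of the integrated stress response were lower in 12 of 24 and higher in 1 (7 lower without the FTO control library, and 3 higher without METTL3 knockdown library 2), and that median was -0.57 as fitted and -0.08 with the trend removed.

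Cytokines and NF-kB targets had 8 higher and 7 lower of 21, with a median of -0.16 as fitted and -0.53 with the trend removed. Among the lower was Relb, a subunit of NF-kB, with 27.4 and 30.6 CPM in the FTO experiment, against 99.5, 113, 95.8 and 99.8 CPM in the METTL3 experiment (log2 fold change -1.79 ± 0.12 SE, adjusted p = 9.5e-06). With the trend removed the log2 fold change of Relb was -0.90. Il1rl1 of the same list was higher (log2 fold change 3.57 ± 0.22 SE, adjusted p = 7.1e-06). Genes of the NRF2 antioxidant response had 6 higher and 6 lower of 18, with a median of -0.05 both as fitted and with the trend removed. Nqo1, a quinone reductase, had 82.8 and 48.6 CPM in the FTO experiment, against 24.5, 34.8, 22.1 and 25.9 CPM in the METTL3 experiment (log2 fold change 1.32 ± 0.22 SE, adjusted p = 0.00096). Gstm1, which has a near-identical copy, was lower (log2 fold change -1.59 ± 0.17 SE, adjusted p = 9.1e-05). Sterol synthesis had 8 higher and 6 lower of 25 (10 lower without the FTO control library), with a median of -0.05 as fitted and 0.05 with the trend removed. Glycolysis had 3 higher and 5 lower of 18 (3 lower without the FTO knockdown library or METTL3 knockdown library 1), with a median of -0.23 as fitted and 0.22 with the trend removed. Hk2, a hexokinase, had 132 and 61.2 CPM in the FTO experiment, against 28.2, 22.6, 21.3 and 17.4 CPM in the METTL3 experiment (log2 fold change 2.13 ± 0.28 SE, adjusted p = 0.00024). Pfkl, a phosphofructokinase, was lower (log2 fold change -1.32 ± 0.13 SE, adjusted p = 5e-05). Chaperones of the endoplasmic reticulum and the unfolded protein response were lower in 10 of 19 and higher in 3 (6 lower without the FTO knockdown library). The list's median was -0.45 as fitted and -0.42 with the trend removed. Sdf2l1, a chaperone cofactor of the endoplasmic reticulum, had 6.17 and 13.8 CPM in the FTO experiment, against 25.2, 23.6, 38 and 37.4 CPM in the METTL3 experiment (log2 fold change -1.6 ± 0.35 SE, adjusted p = 0.0039). In the same list Dnajb9 was higher (log2 fold change 2.15 ± 0.19 SE, adjusted p = 2.9e-05). Canx was higher too (log2 fold change 1.51 ± 0.09 SE, adjusted p = 5.8e-06).

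Histone mRNAs of the replication-dependent clusters mostly lack a poly(A) tail, and their levels were low in both experiments. Of 21 tested, 15 were higher in the FTO experiment and 1 lower, with a median of 1.74 as fitted and 0.69 with the trend removed. Counted as families, 8 of 13 were higher and 3 lower. Hist1h1e, a linker histone, had 7.55 and 7.26 CPM in the FTO experiment, against 0.645, 1.19, 1.73 and 1.01 CPM in the METTL3 experiment (log2 fold change 2.72 ± 0.31 SE, adjusted p = 0.00012), whereas Hist1h1c, another linker histone, had 29 and 30.3 CPM in the FTO experiment, against 62.9, 61.4, 68.6 and 77.7 CPM in the METTL3 experiment (log2 fold change -1.16 ± 0.13 SE, adjusted p = 0.00011). Of 12 nuclear long noncoding RNAs and hosts of small nucleolar RNAs, 8 were higher and 1 lower (4 higher without the FTO knockdown library). The list's median was 1.02 as fitted and 0.61 with the trend removed. Malat1, the abundant RNA of nuclear speckles, had 2488 and 2112 CPM in the FTO experiment, against 564, 405, 561 and 395 CPM in the METTL3 experiment (log2 fold change 2.28 ± 0.18 SE, adjusted p = 1.8e-05). Neat1, the scaffold of paraspeckles, had 109.6 and 127 CPM in the FTO experiment, against 270.3, 143, 293 and 143 CPM in the METTL3 experiment and did not pass, with an adjusted p of 0.053.

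**Figure D4:**
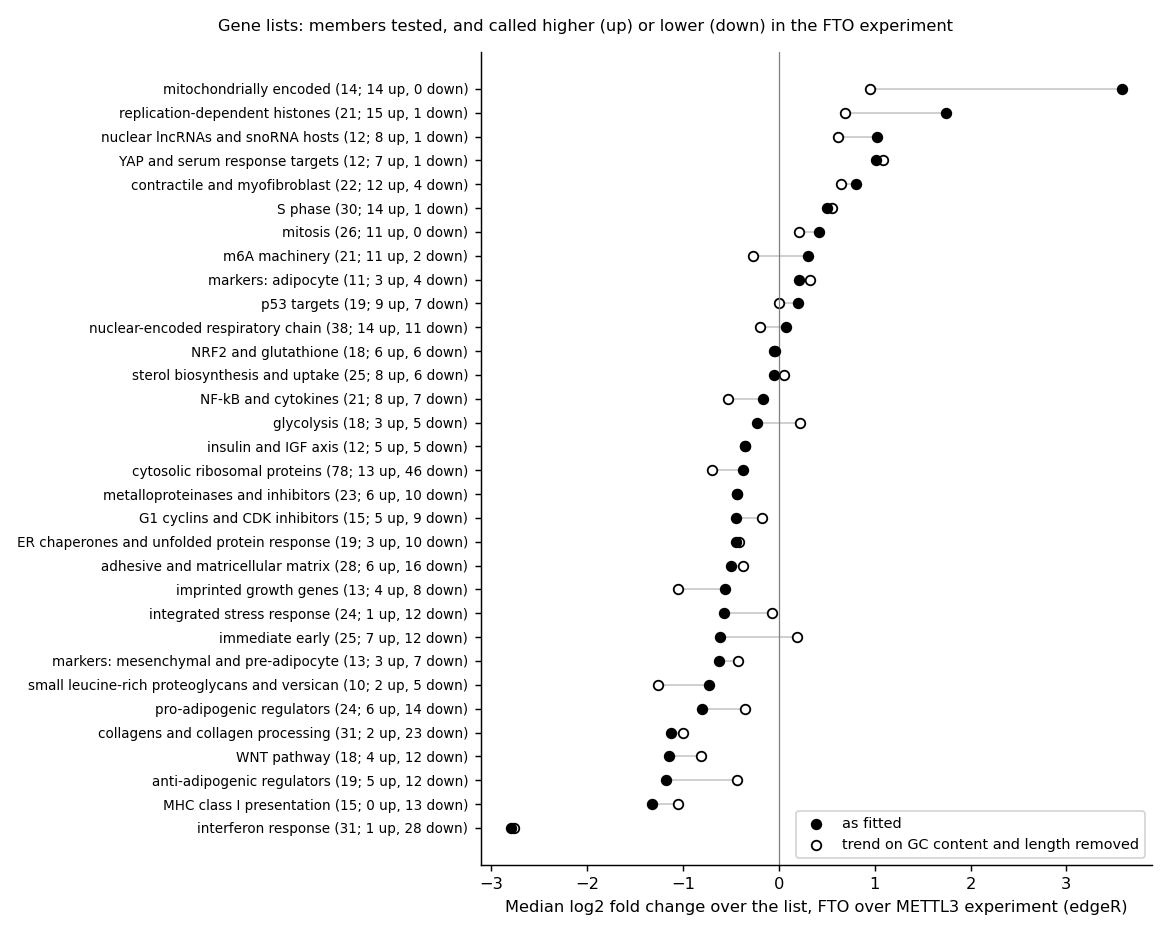
Median log2 fold change, FTO over METTL3 experiment, of each gene list with 10 or more genes tested, as fitted (filled) and with the trend on GC content and length removed (open), with counts of genes tested and passing the test in brackets. The interferon list lies at -2.79 and -2.76, the collagen list at -1.13 and -1.0, and the mitochondrially encoded list at 3.58 and 0.95. The trend was fitted with the mitochondrially encoded genes included, so it can hold part of their own difference.

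The insulin and IGF axis was split, with 5 higher and 5 lower of 12 (3 lower without the FTO knockdown library). The list's median was -0.35 as fitted and -0.36 with the trend removed. Igf1r, the receptor of IGF-1, had 106 and 104 CPM in the FTO experiment, against 27.6, 27, 28.7 and 31.2 CPM in the METTL3 experiment (log2 fold change 1.9 ± 0.10 SE, adjusted p = 3.2e-06), and Irs1, its docking protein, had 116 and 127 CPM in the FTO experiment, against 22.6, 23, 25.2 and 26.2 CPM in the METTL3 experiment (log2 fold change 2.35 ± 0.10 SE, adjusted p = 1.5e-06). Igfbp4, which sequesters IGFs, had 5.82 and 4.33 CPM in the FTO experiment, against 123, 60.2, 68.3 and 20.8 CPM in the METTL3 experiment (log2 fold change -3.72 ± 0.68 SE, adjusted p = 0.0014). With control libraries only, its adjusted p was 0.11. Pappa, the protease that cleaves it, had 44.9 and 63.9 CPM in the FTO experiment, against 7.53, 6.24, 10.6 and 14.8 CPM in the METTL3 experiment (log2 fold change 2.51 ± 0.31 SE, adjusted p = 0.00019). Among imprinted growth genes 8 of 13 were lower and 4 higher (5 lower without the FTO knockdown library), with a median of -0.56 as fitted and -1.05 with the trend removed. Peg10, a retrotransposon-derived placental gene, was higher with 256 and 306 CPM in the FTO experiment, against 20.9, 27.1, 29.1 and 37.8 CPM in the METTL3 experiment (log2 fold change 3.32 ± 0.20 SE, adjusted p = 6.7e-06). Ptgs2, the inducible cyclooxygenase, had 417 and 170.3 CPM in the FTO experiment, against 14.9, 33.5, 19.5 and 39.5 CPM in the METTL3 experiment (log2 fold change 3.48 ± 0.42 SE, adjusted p = 0.00016). Among p53 targets 9 of 19 were higher and 7 lower (3 lower without the FTO knockdown library), with a median of 0.2 as fitted and 0.0049 with the trend removed. Zmat3 had 115 and 150.1 CPM in the FTO experiment, against 23.4, 21.3, 23.9 and 21.2 CPM in the METTL3 experiment (log2 fold change 2.59 ± 0.13 SE, adjusted p = 2.9e-06). Bbc3, the pro-apoptotic protein PUMA, had 6.14 and 9.58 CPM in the FTO experiment, against 86.6, 76, 76.4 and 66 CPM in the METTL3 experiment (log2 fold change -3.25 ± 0.22 SE, adjusted p = 1e-05). With the trend removed the log2 fold change of Bbc3 was -1.62.

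The m6A machinery itself was more often higher. Of 21 tested, 11 were higher and 2 lower, with a median of 0.3 as fitted, but of -0.27 with the trend removed. Rbm15, an adaptor of the writer complex, had 52 and 42.1 CPM in the FTO experiment, against 12.7, 15.6, 10.2 and 12.2 CPM in the METTL3 experiment (log2 fold change 1.92 ± 0.17 SE, adjusted p = 2.9e-05, and 1.17 on the log2 scale with the trend removed). Mettl14, the partner of METTL3, was lower with 16.9 and 13.7 CPM in the FTO experiment, against 22.5, 25.9, 22.5 and 22 CPM in the METTL3 experiment (log2 fold change -0.57 ± 0.13 SE, adjusted p = 0.0053). The readers Ythdf1 and Igf2bp2 and the demethylase Alkbh5 did not pass, with log2 fold changes of 0.24, 0.05 and 0.19.

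Mitochondrially encoded genes took 3.90% and 4.14% of counted reads in the FTO experiment, against 0.679%, 0.687%, 0.605% and 0.757% in the METTL3 experiment. The difference of 3.33 percentage points had a two-sided exact permutation p of 0.133, the smallest that 2 against 4 libraries allow. All 14 genes tested were higher, whichever library was left out. The excess was uneven along the mitochondrial genome. The gene mt-Co1, subunit I of cytochrome c oxidase, had 8468 and 9251 CPM in the FTO experiment, against 2735, 2806, 2636 and 3397 CPM in the METTL3 experiment (log2 fold change 1.64 ± 0.12 SE, adjusted p = 1.4e-05). The gene mt-Cytb, cytochrome b, had 3932 and 4284 CPM in the FTO experiment, against 1029, 1026, 804 and 1042 CPM in the METTL3 experiment (log2 fold change 2.1 ± 0.13 SE, adjusted p = 6.2e-06). The gene mt-Atp6, a subunit of ATP synthase, had 3256 and 3394 CPM in the FTO experiment, against 63.2, 87.2, 60.4 and 81.7 CPM in the METTL3 experiment (log2 fold change 5.54 ± 0.16 SE, adjusted p = 3.1e-07), and mt-Nd3, a subunit of complex I, had 369 and 252 CPM in the FTO experiment, against 2.1, 2.6, 2.24 and 2.3 CPM in the METTL3 experiment (log2 fold change 7.09 ± 0.17 SE, adjusted p = 1.1e-07).

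Of the 14 genes, 8 had a near-identical nuclear copy among the annotated transcripts, and for 6 none was found. Log2 fold changes ran from 1.64 to 7.09 with a copy and from 1.82 to 6.59 where none was found. The 6.59 was that of mt-Atp8, which with 204 bases can hardly meet the rule for a copy. Copies of mt-Co1, mt-Co2, mt-Nd2 and mt-Nd5 were among the counted entries and held almost no reads. For mt-Nd4l, a complex I subunit that was not tested by gene, the gene had 0 and 0.0341 CPM in the FTO experiment and no read in the METTL3 experiment, and its counted copy had 3.35 and 1.88 CPM in the FTO experiment, against 0, 0, 0.0231 and 0 CPM in the METTL3 experiment. The counted copy of mt-Co2 had 0.917 and 0.546 CPM in the FTO experiment, against 0.0478, 0.0449, 0 and 0.0239 CPM in the METTL3 experiment. Copies of mt-Co3, mt-Nd4, mt-Atp6 and mt-Nd3, genes with log2 fold changes of 3.81, 3.98, 5.54 and 7.09, were not analysed here. With the trend on GC content and length removed, the list's median was 0.95, and these genes are short and low in GC content (median 35.9%). The trend was fitted with these genes included, so what it removed can hold part of their own difference. Among clear coding genes, the median log2 ratio was 0.94 in the lowest of 5 groups by GC content. It was -0.54 in the shortest of 5 groups by transcript length. Among nuclear-encoded genes of the respiratory chain 14 of 38 were higher and 11 lower, with a median of 0.07 as fitted and -0.19 with the trend removed. The number higher was 9 without either FTO library or METTL3 knockdown library 1, and 5 with control libraries only. The cause of the mitochondrial difference was not tested.

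Processed pseudogenes are copies of mRNAs inserted into the genome without introns. A pseudogene low in the METTL3 experiment could reach 5 CPM only through the FTO experiment, so the counts that follow are a description. Of 153 pseudogenes of any kind at 5 CPM or more, 120 were higher in the FTO experiment, 23 lower and 10 overlapping. In 80 of the 120, all 4 METTL3-experiment libraries were under 1 CPM, whereas 2 of the 23 lower were under 1 CPM in both FTO-experiment libraries. Of 39 whose closest copy is a ribosomal protein gene, 35 were higher. Pseudogenes took 0.607% and 0.586% of counted reads in the FTO experiment, against 0.311%, 0.313%, 0.294% and 0.277% in the METTL3 experiment.

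The sequences show how close these pairs are. Each is a stretch of 101 bases, the length of a read, in coding sequence of a gene across an exon junction and in its single-exon copy (GENCODE M21 transcripts, GRCm38). Capitals in the gene mark the downstream exon, and capitals in the copy mark bases that differ from the gene.
Gapdh (chr6:125162658-125162708 and chr6:125162843-125162892, minus strand): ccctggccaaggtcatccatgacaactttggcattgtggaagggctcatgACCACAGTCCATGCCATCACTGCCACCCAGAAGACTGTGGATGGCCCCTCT
Gm12033 (chr11:20335444-20335544, minus strand): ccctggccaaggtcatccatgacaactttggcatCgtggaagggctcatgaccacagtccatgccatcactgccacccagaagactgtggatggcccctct
Rpl10a (chr17:28328836-28328885 and chr17:28328967-28329017, plus strand): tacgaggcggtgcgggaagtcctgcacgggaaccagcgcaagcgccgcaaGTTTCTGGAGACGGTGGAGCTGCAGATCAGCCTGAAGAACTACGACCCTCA
Rpl10a-ps1 (chr1:64994474-64994574, minus strand): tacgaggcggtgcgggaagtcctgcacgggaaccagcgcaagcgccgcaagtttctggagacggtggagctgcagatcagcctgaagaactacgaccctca
Actg1 (chr11:120346483-120346533 and chr11:120346637-120346686, minus strand): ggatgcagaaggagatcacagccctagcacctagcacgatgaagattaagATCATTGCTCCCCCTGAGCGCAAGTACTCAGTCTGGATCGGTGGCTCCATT
Gm12715 (chr4:103564336-103564436, plus strand): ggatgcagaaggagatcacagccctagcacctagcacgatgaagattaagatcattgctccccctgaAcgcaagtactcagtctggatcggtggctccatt
The first pair differs by T35C and the third by G68A, counted from 1 at the 5′ end of the stretch with the gene's base first, and the second pair has 0 differences. A read over such a junction matches the gene only when spliced, and matches the copy without splicing.

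Counts of such copies differed very widely between the experiments. Gm12033, the copy of Gapdh, had 353 and 357 CPM in the FTO experiment, against 0.119, 0.0673, 0.0462 and 0 CPM in the METTL3 experiment. Rpl10a-ps1 had 85 and 123 CPM in the FTO experiment, against 0.0956, 0.135, 0 and 0.168 CPM in the METTL3 experiment. Gm12715, the copy of Actg1, had 85.6 and 60.2 CPM in the FTO experiment, against 0.0239, 0.224, 0.254 and 0.12 CPM in the METTL3 experiment. Gm10275, an identical copy of Rpl12, had 88.2 and 98.6 CPM in the FTO experiment, against 0.0478, 0.157, 0.0925 and 0.0958 CPM in the METTL3 experiment. Gm10123, a copy of Ppia, had 95.7 and 63.1 CPM in the FTO experiment and no read in the METTL3 experiment, at least 4540-fold higher against a floor of 3 counts over the 4 libraries. In each of these copies both FTO-experiment libraries were high and the METTL3-experiment libraries lay near 0.

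Each gene was therefore also counted together with its near-identical copies, as a family. Gapdh itself, a glycolytic enzyme, had 175 and 112 CPM in the FTO experiment, against 2043, 2078, 172 and 151 CPM in the METTL3 experiment, and its 34 counted copies had 726 and 733 CPM in the FTO experiment, against 296, 287, 21.7 and 16.7 CPM in the METTL3 experiment. By the gene's own count both FTO-experiment libraries lay near the METTL3 control libraries, and the METTL3 knockdown libraries far above. By the family sum they lay between the METTL3 control and knockdown libraries. The family had 900.1 and 844 CPM in the FTO experiment, against 2339, 2365, 193 and 167 CPM in the METTL3 experiment (log2 fold change -0.5 ± 1.04 SE, adjusted p = 0.69), so the difference did not pass for Gapdh by family, nor by the gene's own count (adjusted p = 0.057). Rps27, a ribosomal protein, had 42.1 and 54.2 CPM in the FTO experiment, against 206, 182, 252 and 186 CPM in the METTL3 experiment (log2 fold change -2.07 ± 0.19 SE, adjusted p = 3.8e-05). Its copies had 249 and 191 CPM in the FTO experiment, against 98.7, 87.9, 131 and 87.8 CPM in the METTL3 experiment. The family sum was 292 and 245 CPM in the FTO experiment, against 305, 269.6, 382 and 274 CPM in the METTL3 experiment (log2 fold change -0.16 ± 0.16 SE, adjusted p = 0.42), which did not pass. Rpl34 had 65.9 and 42 CPM in the FTO experiment, against 301, 301, 293 and 285 CPM in the METTL3 experiment (log2 fold change -2.43 ± 0.18 SE, adjusted p = 1.5e-05), and its copies had 149.8 and 164 CPM in the FTO experiment, against 11.9, 11.9, 12.9 and 10.03 CPM in the METTL3 experiment. Their sum was still lower (log2 fold change -0.5 ± 0.09 SE, adjusted p = 0.0018). For Rps2 the gene alone was lower (log2 fold change -0.51 ± 0.10 SE, adjusted p = 0.002), and its family did not pass (log2 fold change -0.13 ± 0.10 SE, adjusted p = 0.27).

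Other families kept their difference. Rpl21 had 71.4 and 46.5 CPM in the FTO experiment, against 585, 514, 606 and 581 CPM in the METTL3 experiment and its 27 counted copies had 35.7 and 37.1 CPM in the FTO experiment, against 62.3, 56.9, 70.3 and 65.4 CPM in the METTL3 experiment, so the sum stayed lower (log2 fold change -2.69 ± 0.14 SE, adjusted p = 6.5e-06). The Rpl10a family was lower too (log2 fold change -0.73 ± 0.12 SE, adjusted p = 0.00085), as was the Rpl35 family (log2 fold change -1.52 ± 0.11 SE, adjusted p = 1.6e-05). Hsp90aa1, an inducible chaperone, had 816 and 659 CPM in the FTO experiment, against 147, 216, 153 and 217 CPM in the METTL3 experiment, and its family was higher (log2 fold change 2.12 ± 0.18 SE, adjusted p = 3.3e-05). Among 78 ribosomal protein genes, 13 were higher and 46 lower by gene (8 higher without the FTO knockdown library), with 60 of them having copies, and 14 were higher and 39 lower by family. By gene the list's median was -0.38 as fitted and -0.7 with the trend removed. Over all genes, families summed, 9443 of 14133 (66.8%) passed the edgeR test. Of 689 families at 5 CPM or more, 325 were higher, 208 lower and 156 overlapping.

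**Figure D5:**
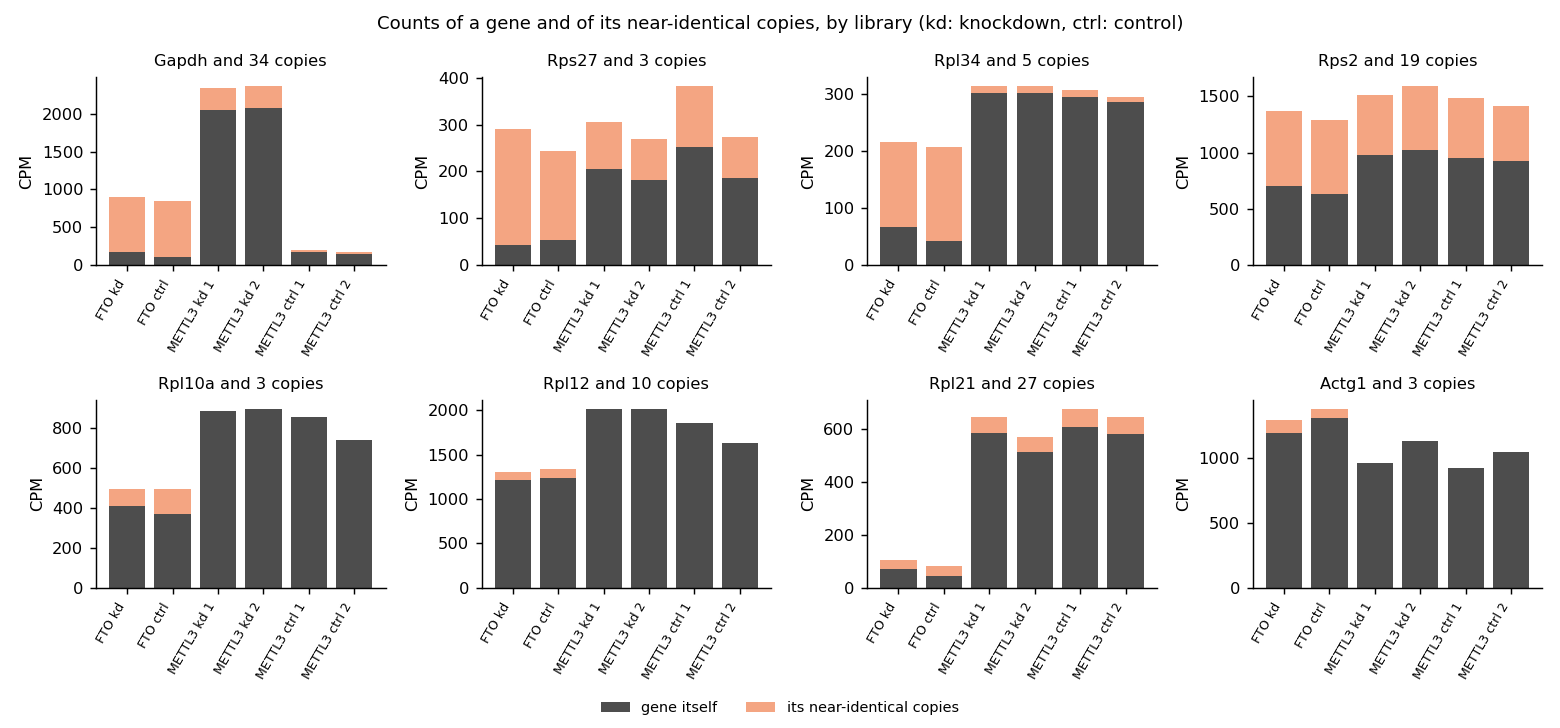
CPM of 8 genes (dark) and of their near-identical copies (light), stacked, in each library, with FTO-experiment libraries on the left. Copies hold most of the Gapdh, Rps27 and Rpl34 family in both FTO-experiment libraries and a small or smaller part in the METTL3 experiment, while the Rpl21 family is low in the FTO experiment as a whole.

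Of the 1015 genes with a copy, 300 were lower in the FTO experiment, and those with the widest gap are described here without a test. Apol9b had 0.494 and 1.06 CPM in the FTO experiment, against 18.2, 11.7, 18.5 and 14.8 CPM in the METTL3 experiment, and Mx2 had 0.529 and 0.614 CPM in the FTO experiment, against 13.9, 7.25, 13.2 and 8.31 CPM in the METTL3 experiment. Trim21, a cytosolic antibody receptor, had 2.47 and 2.97 CPM in the FTO experiment, against 16.5, 13.7, 17.5 and 17.1 CPM in the METTL3 experiment. Gm2830, a copy of Rps24, was the pseudogene with the widest gap in this direction, with 2.05 and 1.26 CPM in the FTO experiment, against 25, 22.6, 35.6 and 27.5 CPM in the METTL3 experiment. The proliferins, placental hormones secreted by 3T3 cells, share most of their sequence. Prl2c2 had 246 and 54.8 CPM in the FTO experiment, against 46.8, 56.3, 45.3 and 56.2 CPM in the METTL3 experiment (log2 fold change 1.58 ± 0.43 SE, adjusted p = 0.012), and without the FTO knockdown library its log2 fold change was 0.15 and did not pass. Prl2c3 had 88.5 and 62 CPM in the FTO experiment, against 4.06, 5.88, 3.61 and 5.39 CPM in the METTL3 experiment (log2 fold change 4.02 ± 0.21 SE, adjusted p = 3.4e-06), and the family sum was 337 and 118 CPM in the FTO experiment, against 52, 63.1, 49.9 and 62.3 CPM in the METTL3 experiment.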

How the data were processed

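Libraries were prepared with a TruSeq v2 kit, which does not mark strand, from poly(A)-selected RNA also depleted of ribosomal RNA, per the labels. The submitters' processing notes name TopHat2 2.0.9, bedtools and mm10. How reads with several matches were counted was not stated. Gene counts as deposited by the authors were scaled to CPM by each library's total, and the deposited RPKM values were used only for the split of members. The groups were taken from the labels.

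The test was edgeR 4.0.16 (R 4.3.3), quasi-likelihood with TMM scaling and filterByExpr, over 6 libraries with experiment as the term, and p-values were adjusted by Benjamini-Hochberg over all genes tested. It was tested on simulated data. The trend was a linear fit of log2 fold change on splines (5 degrees of freedom) of GC content and log length. Copies were found with minimap2 2.31-r1302 among GENCODE M21 transcripts (GRCm38), since no genome was used here. Genes were joined into a family where a near-identical alignment covered at least 50% of the transcript of either gene. Links were chained, so a counted copy of a named gene may be joined to it through another member. Of 37315 entries 35533 matched the annotation. Annotation overlap ignored strand, so reads of overlapping genes cannot be told apart.

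The members and the gene lists were chosen with earlier results of these data known. Named genes are the 12 clear coding genes and 8 genes with a copy of widest gap in each direction, and up to 4 of each list with the largest absolute fold change among genes with mean CPM of at least 5 in either experiment. Others were named for their role after their values were seen. Some genes that this rule names are not reported here. Alternatives covered scaling, filters, DESeq2 1.42.0, 4 groups, control libraries only, families summed, the definition of a copy and leaving out each library.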

Additional observations from a re-analysis of the deposited data

How the results depend on the processing

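The number of genes that passed the test stayed within 1.5 times of 9967 under every alternative run, from 7203 with control libraries only to 10862 with no filter on low counts, and from 7719 to 9831 with 1 library left out. DESeq2 gave 10104. A block for the METTL3 replicate numbers gave 10257; the FTO libraries carry no number, so the block pairs METTL3 libraries alone. Genes not overlapping numbered 6533 (RPKM) to 9702 under alternatives and 8457 to 9298 with 1 library left out, where fewer libraries must be separated. Lists with over 50% of their tested genes called in 1 direction numbered 21, against 13 with no filter, 9 with control libraries only, and 7 (without the FTO knockdown library) to 23 with 1 library left out. The share higher among genes with a copy that did not overlap, 63.4%, was 70.4% at 98% identity, 69.1% at 500 aligned bases or more and 69.8% where the copy covers at least 50% of the transcript. In the clear class 79.3% did not overlap at 20 CPM or more, and 47.5% of those not overlapping were higher with TMM scaling. Some list medians changed sign. Skeletal muscle markers (3 tested, median 1.83) gave -0.11 with DESeq2 and -1.48 with no filter, where more near-zero genes enter. With the trend removed, proliferins gave -0.47, m6A machinery -0.27, immediate early genes 0.18 and glycolysis 0.22. The WNT median of -1.15 was -0.12 with DESeq2, which also tested more genes. Of the list genes named by rule, 23 values at single settings lost their call, 12 gained one and 0 reversed. Gapdh passed under 5 of these settings, with a log2 fold change of -0.47 among control libraries and -2.02 with 4 groups. The trend removal and the 50% cover were chosen after seeing the data. Neither the single FTO library per group nor the read mode can be separated from the experiment by any of these settings.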
